A study of Mus musculus with 12 samples.

Results

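The genes described here are Il10, its receptor gene Il10ra, and 4 genes of the SOCS family of cytokine feedback inhibitors, Socs1, Socs2, Socs3 and Cish. They were taken by symbol, and every probe set that the platform annotation assigned to one of these symbols alone was kept. That gave 9 probe sets for 6 genes, of 28898 single-symbol probe sets for 17097 genes. Socs2 had 4 probe sets and each of the other genes had 1. Expression was measured in dendritic cells (DCs) from the spleens of mice lacking miR-142 (knockout, KO) and of their wild-type (WT) littermates, without stimulation or after lipopolysaccharide (LPS), a bacterial cell wall component that activates DCs through Toll-like receptor 4. The 4 groups of 3 arrays were KO given LPS, WT given LPS, KO unstimulated and WT unstimulated. All mice were 10-week-old C57BL/6 males. Cells were taken by positive selection from individual spleens, and every sample bears a mouse name of its own. The sources used here do not give the allele of the knockout, the marker used for selection, or the dose, duration and route of LPS.

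Interleukin 10 is a cytokine that restrains inflammatory responses. It binds a receptor made of IL10RA and IL10RB, whose kinases JAK1 and TYK2 activate the transcription factor STAT3, and DCs and macrophages both make it and respond to it after Toll-like receptor signals. SOCS proteins are made in response to cytokine signalling and switch it off. SOCS1 and SOCS3 inhibit Janus kinases directly, whereas CISH (the Cish product) and SOCS2, which are typical targets of STAT5, bind activated cytokine receptors through an SH2 domain. All members carry a SOCS box, which recruits a cullin ubiquitin ligase. miR-142 is a microRNA of blood cells, and its hairpin yields the mature RNAs miR-142-5p and miR-142-3p.

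The mature RNAs of the deleted gene are shown first because their absence defines the KO group, with the seed (bases 2 to 8) in capitals. They lie at chr11:87756867-87756887 and chr11:87756903-87756925 on the plus strand of GRCm38.p6, and the sequences are those of RefSeq.
mmu-miR-142a-5p: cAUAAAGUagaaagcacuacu
mmu-miR-142a-3p: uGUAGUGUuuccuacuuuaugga
The seeds of the pair differ. No probe set carried the symbol of the microRNA gene alone, so miR-142 itself was not analysed here and gave no check of the genotypes.

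Cish and Socs3 are shown by their promoters because they are textbook STAT targets and because their levels are compared below. Promoters (250 bases before to 50 bases after the start site of the table, RefSeq, GRCm38.p6) were found for Socs1, Socs3 and Cish, and not for Il10, Il10ra and Socs2. For Socs1 and Cish that site is where the RefSeq gene interval begins, while for Socs3 it lies inside an interval that spans several transcript models. The motif TTCNNNGAA, the core of the site that STAT dimers bind, was searched in them. It is its own reverse complement, so one search covers both strands, and its matches are in capitals. The Cish promoter is chr9:107296409-107296708 on the plus strand and the Socs3 promoter is chr11:117969317-117969616 on the minus strand.
Cish promoter: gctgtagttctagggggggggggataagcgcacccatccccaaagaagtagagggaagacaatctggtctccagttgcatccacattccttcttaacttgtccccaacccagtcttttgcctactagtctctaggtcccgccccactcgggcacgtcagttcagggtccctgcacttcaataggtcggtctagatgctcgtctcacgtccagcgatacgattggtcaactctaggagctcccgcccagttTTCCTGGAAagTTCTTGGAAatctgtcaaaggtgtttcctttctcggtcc
Socs3 promoter: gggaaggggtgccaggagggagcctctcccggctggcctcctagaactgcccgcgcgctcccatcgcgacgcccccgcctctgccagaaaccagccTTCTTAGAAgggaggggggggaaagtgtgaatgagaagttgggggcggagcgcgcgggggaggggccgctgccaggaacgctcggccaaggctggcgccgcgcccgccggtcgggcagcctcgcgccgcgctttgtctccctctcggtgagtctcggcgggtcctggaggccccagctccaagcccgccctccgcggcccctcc
Cish held 2 matches, TTCCTGGAA beginning at base 1 from the start site and TTCTTGGAA at base 12. Socs3 held 1 match, TTCTTAGAA, beginning 154 bases before the start site used. The Socs1 promoter (chr16:10785487-10785786, minus strand) held 0 matches. At least 1 match was present in 8.3% of the 32851 mouse promoters of this length, and 2 or more in 0.457%. A match of letters is not a bound site.

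Values are log2 signals, and array medians lay between 2.65 and 2.72. One library stood apart. Array 2 of the KO LPS group correlated with the other arrays at 0.935 to 0.958, against 0.966 to 0.991 among the other 11, and the 3' probe set of Gapdh exceeded the middle one by 3.04 on it against 1.53 to 1.86 on the others. Values printed below for the 6 genes and the pathway lists are therefore also given without it where that changed a call or a sign or moved a value by over 1.5 times. Values of the lists that are not printed can depend on it as well. The 7 measured DC markers (Flt3, Zbtb46, Itgax, H2-Ab1, Cd74, Xcr1 and Sirpa) all lay above the median probe set in every group. The sample descriptions name T cells where the other fields name DCs. Of 7 measured T cell markers, 6 also lay above that median in each group. All 5 B and plasma cell markers, all 4 platelet markers and 7 of 8 NK cell markers did so too, against 1 of 5 mast cell and basophil markers. Lying above that median therefore did not set the DC markers apart. Of 10 neutrophil markers 3 passed as higher in KO in each stimulation, and of 8 NK cell markers 3 did after LPS and 2 without it, while 1 of 5 B and plasma cell markers passed as lower in each stimulation. The other members of these lists did not pass. Of all probe sets 0.163% passed for KO against WT unstimulated and 0.322% after LPS. The log2 summed signal of 10 neutrophil markers was 11.1 to 12.6 in KO LPS and 7.64 to 9.82 in WT LPS arrays, and 11.2 to 12.8 in KO unstimulated and 7.77 to 9.96 in WT unstimulated arrays. For 8 NK cell markers it was 9.37 to 9.79 in KO LPS and 6.83 to 7.84 in WT LPS arrays, and 9.49 to 9.77 in KO unstimulated and 6.72 to 7.77 in WT unstimulated arrays. Klrk1 (4.60 in KO and 4.87 in WT) and Prf1 (4.05 and 4.47) were lower in KO after LPS, and the other NK cell markers were higher. For 4 platelet markers the sum was 6.81 to 9.22 in KO LPS and 5.78 to 6.71 in WT LPS arrays, and 7.03 to 8.72 in KO unstimulated and 5.54 to 6.58 in WT unstimulated arrays. For 5 B and plasma cell markers the sum was 8.03 to 8.73 in KO unstimulated and 8.81 to 9.21 in WT unstimulated arrays. Among them Jchain averaged 3.77 in KO and 7.80 in WT unstimulated DCs. Cd79b was slightly lower in KO, whereas Cd79a, Ms4a1 (6.63 and 5.86) and Pax5 were higher. For 7 T cell markers the sum was 7.02 to 7.16 in KO unstimulated and 7.31 to 7.58 in WT unstimulated arrays. Cd4 (4.89 and 5.50), Cd8a (5.38 and 5.77), Cd3d, Lat and Foxp3 were lower in KO, and Cd3e and Cd3g were higher. Cd4 and Cd8a were the brightest of this list and weighed most in its sum. Whether their signal came from T cells or from DCs was not tested. After LPS the ranges of both sums overlapped. The medians were then 8.42 in KO and 9.07 in WT for B and plasma cell markers, and 7.06 and 7.49 for T cell markers. The neutrophil, NK cell and platelet sums were higher in KO without overlap in both stimulations. The B and T cell sums were lower in KO, without overlap when unstimulated and with overlap after LPS. The part of these sums in the KO and WT comparisons below was not tested. In such bulk samples fewer cells of a type and less RNA per cell cannot be told apart.

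Of the 6 genes, Il10 alone passed the test, and only for LPS in KO DCs. Each comparison came from a limma fit over all 28898 probe sets, with Benjamini-Hochberg adjustment over all of them and a threshold of 0.05. The comparison of LPS with no stimulation in KO DCs called 1 of the 9 probe sets, against 0.301% of all probe sets. In WT DCs it called 0 of 9, against 0.128%. KO against WT called 0 of 9 without stimulation (0.163% of all) and 0 of 9 after LPS (0.322%). The test of whether the LPS effect differed between KO and WT called 0 of 9 and 0% of all probe sets. An unadjusted p under 0.05 was reached by 4 of 9 for LPS in KO (9.53% of all) and by 3 of 9 for LPS in WT (4.93%). It was reached by 1 of 9 for KO against WT without stimulation (8.49%), by 2 of 9 after LPS (13.9%), and by 0 of 9 for the difference of the LPS effects (3.95%). The 3 arrays of one group all lay above or below the 3 of the other for 3 of 9 probe sets with LPS in KO (13.5% of all), 2 of 9 with LPS in WT (11.7%), 1 of 9 for KO against WT unstimulated (16.5%) and 1 of 9 after LPS (17.1%). Without KO LPS array 2 the adjusted threshold was passed by Il10 alone, for LPS in KO (1 of 9, against 0.464% of all) and in WT (1 of 9, against 0.36%). KO against WT then passed for 0 of 9 unstimulated (0.851%) and 0 of 9 after LPS (0.433%), and the difference of the LPS effects for 0 of 9 (0%). The median LPS difference of the 9 probe sets was 0.36 in KO and 0.14 in WT, beside −0.022 and 0.0024 over all probe sets. The p-values measure the spread between these arrays.

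**Figure D1:**
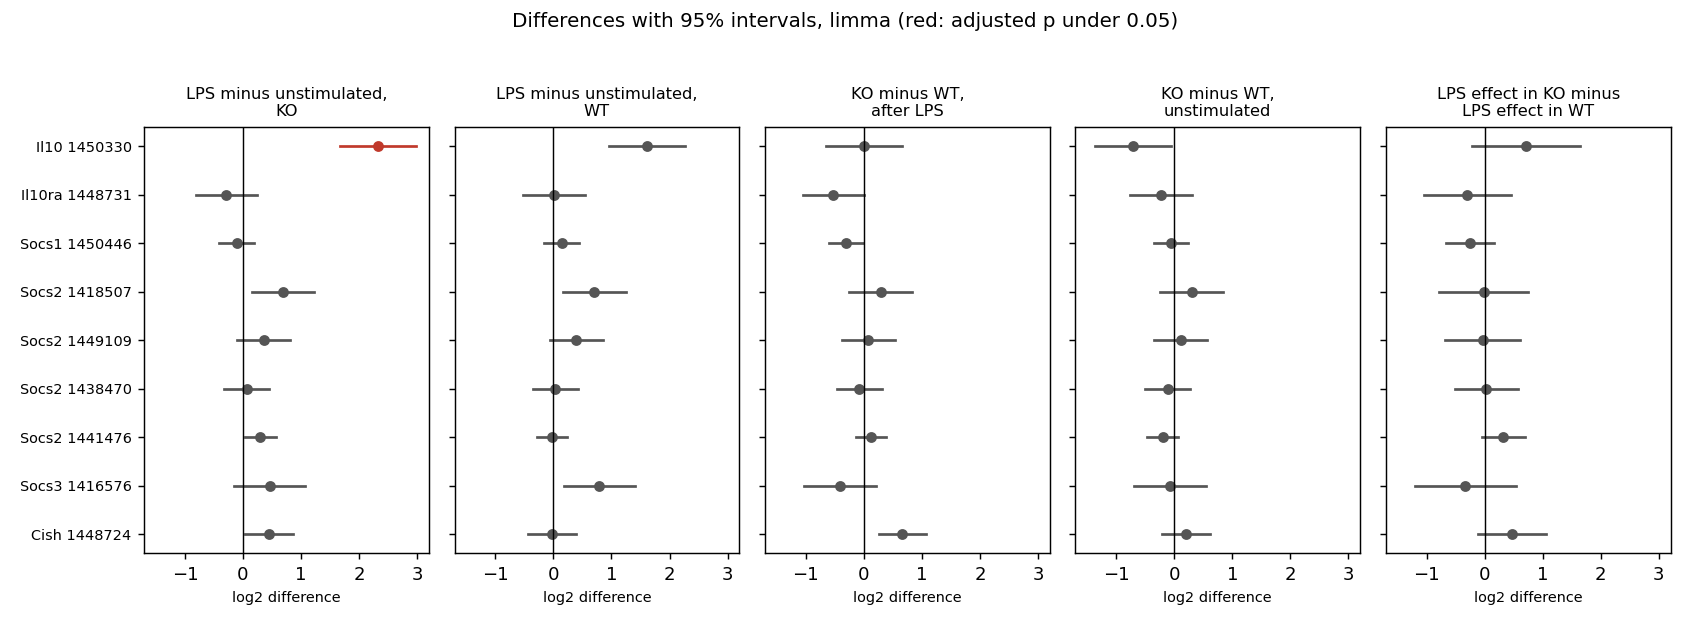
Log2 difference (horizontal axis) of each of the 9 probe sets in the 5 comparisons, with its 95% interval; red marks an adjusted p under 0.05. Red appears once, for Il10 with LPS in KO DCs (2.32), and the Cish interval after LPS (0.25 to 1.08) lies above 0 without passing the adjusted threshold.

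Il10 was the member that moved most. Its probe set read 5.85, 4.83 and 5.26 in the KO LPS arrays, 5.41, 5.26 and 5.26 in the WT LPS arrays, 3.46, 2.43 and 3.10 in the KO unstimulated arrays, and 3.14, 3.96 and 4.02 in the WT unstimulated arrays. Every LPS array of either genotype lay above every unstimulated array, and the genotypes overlapped within each stimulation. Il10 rose with LPS in KO DCs by 2.32 ± 0.30 (moderated SE) on the log2 scale, a 4.99-fold difference with an adjusted p of 0.00555. That was the ninth largest increase of the 28898 probe sets. In WT DCs the difference was 1.60 ± 0.30, or 3.04-fold, and its adjusted p of 0.0805 missed the threshold. Without KO LPS array 2 the KO difference was 2.56 (adjusted p = 0.00139). The WT difference passed without that array (adjusted p = 0.0203), although the array is not in the WT groups. All groups share one estimate of the spread, and the adjustment runs over all probe sets, so WT results can change with that array. How much each contributed was not tested.

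After LPS the mean Il10 levels of the genotypes were nearly equal. They were 5.31 ± 0.51 in KO LPS and 5.31 ± 0.089 in WT LPS DCs (SD, n = 3 each), a difference of 0.0016 with a 95% interval of −0.65 to 0.66. This difference was 0.24 without KO LPS array 2. Before stimulation the means were 2.99 ± 0.52 in KO and 3.71 ± 0.49 in WT DCs. That difference of −0.71 ± 0.30 had an unadjusted p of 0.0349 and an adjusted p of 0.536, and ran between −1.0 and −0.43 when each array was left out in turn. KO unstimulated Il10 ranked above 52.4% of probe sets and WT unstimulated Il10 above 67.3%, so the lower starting level was near the middle of the array. The LPS effect was 0.72 ± 0.43 larger in KO than in WT (interval −0.21 to 1.64, adjusted p = 0.957), and 0.96 larger without KO LPS array 2. These data therefore did not separate the LPS effects of the genotypes.

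**Figure D2:**
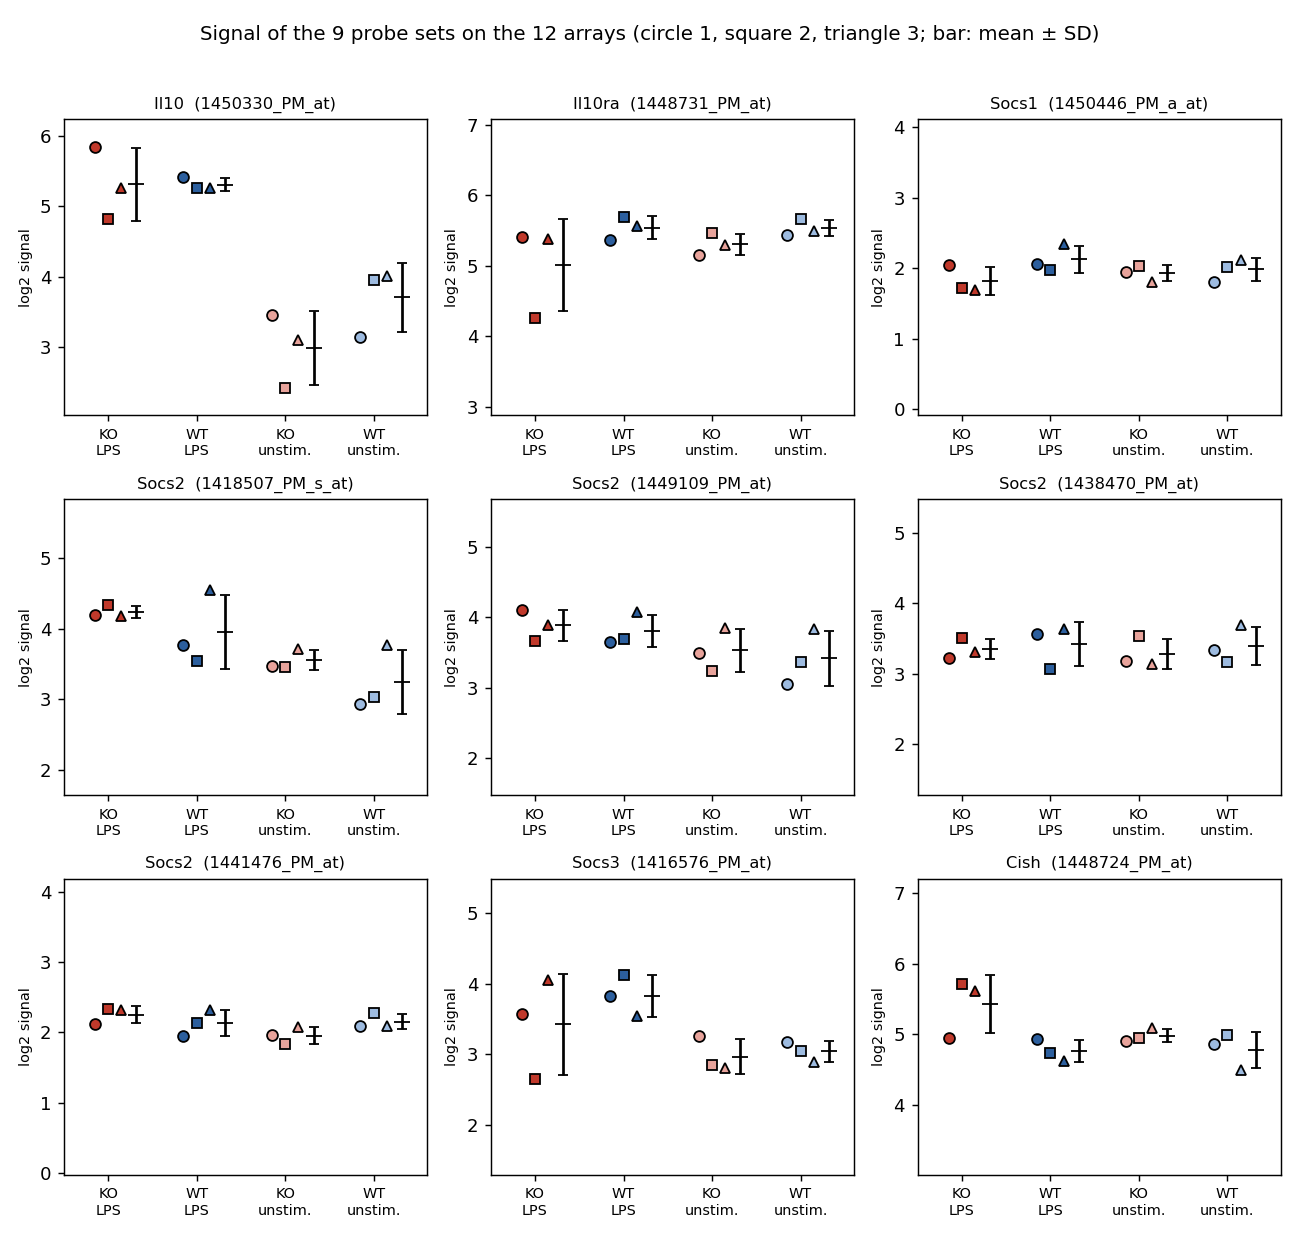
Log2 signal (vertical axis) of each probe set on all 12 arrays by group, with circles, squares and triangles for arrays 1, 2 and 3 and bars for the mean ± SD (n = 3); every panel spans the same number of log2 units. For Il10 all LPS arrays (4.83 or higher) lie above all unstimulated arrays (4.02 or lower), and for Cish the KO LPS arrays (4.95 or higher) lie above the WT LPS arrays (4.93 or lower).

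Il10ra, the ligand-binding chain of the receptor, was among the brighter probe sets, above 88.4% of all on its mean. It read 5.40, 4.27 and 5.39 in KO LPS, 5.37, 5.70 and 5.56 in WT LPS, 5.16, 5.46 and 5.29 in KO unstimulated, and 5.44, 5.66 and 5.50 in WT unstimulated arrays. Apart from the 4.27 of KO LPS array 2, all values lay within 5.16 to 5.70, and the groups overlapped. The LPS difference was −0.29 ± 0.24 in KO (adjusted p = 0.755) and 0.0089 ± 0.24 in WT DCs. The KO difference without KO LPS array 2 was 0.091, of the opposite sign. KO minus WT was −0.52 ± 0.24 after LPS (adjusted p = 0.362), and −0.15 without that array. Without stimulation it was −0.23 ± 0.24 (adjusted p = 0.883, interval −0.76 to 0.30). The difference between the LPS effects on Il10ra was −0.30 ± 0.34 (adjusted p = 0.957), and 0.082 without KO LPS array 2. The second receptor chain, Il10rb, which several cytokines of the family share, was 0.69 ± 0.14 above WT in KO DCs after LPS (adjusted p = 0.0746, 0.60 without KO LPS array 2) and 0.45 ± 0.14 above it unstimulated (adjusted p = 0.349). Neither passed.

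Socs2 was read by 4 probe sets, which did not tell one story. The brightest, 1418507_PM_s_at, whose suffix marks probes that may match more than 1 transcript, read 4.20, 4.34 and 4.18 in KO LPS, 3.77, 3.54 and 4.55 in WT LPS, 3.48, 3.46 and 3.72 in KO unstimulated, and 2.94, 3.03 and 3.77 in WT unstimulated arrays. In KO DCs the LPS arrays were all above the unstimulated ones, whereas in WT DCs array 3 was the highest of its group both with and without LPS and the groups overlapped. The LPS difference was 0.69 ± 0.25 in KO (adjusted p = 0.389) and 0.71 ± 0.25 in WT DCs (adjusted p = 0.819), and the difference between them was −0.015 ± 0.35 (interval −0.78 to 0.75), or −0.065 without KO LPS array 2. Within the array numbers the LPS increase of this probe set was 0.72, 0.88 and 0.47 in KO and 0.84, 0.51 and 0.77 in WT DCs. The labels do not say that arrays of the same number are matched. With these numbers as a fixed block, Socs2 passed in KO (adjusted p = 0.0360) and in WT (adjusted p = 0.0498). With the numbers as a random block, whose correlation is estimated, it passed in neither (adjusted p = 0.210 in KO and 0.453 in WT). With the fixed block and KO LPS array 2 left out, the KO difference was 0.60 and missed (adjusted p = 0.0750), and the WT difference passed (adjusted p = 0.00639). The random block was not run without that array. With all arrays, Il10 passed under the fixed block in both genotypes as well (adjusted p = 0.00051 in KO and 0.00507 in WT). The fixed block thus called 2 of the 9 probe sets in KO, against 0.685% of all, and 2 of 9 in WT, against 0.367%.

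The second Socs2 probe set, 1449109_PM_at, tracked the first over the 12 arrays (Pearson r = 0.842, a description over arrays that share groups). It read 4.10, 3.67 and 3.89 in KO LPS, 3.66, 3.69 and 4.08 in WT LPS, 3.50, 3.24 and 3.85 in KO unstimulated, and 3.05, 3.36 and 3.83 in WT unstimulated arrays. Its groups overlapped, with LPS differences of 0.36 ± 0.21 in KO (0.47 without KO LPS array 2) and 0.39 ± 0.21 in WT DCs. The difference between these was −0.034, and 0.077 without that array. KO minus WT after LPS was 0.079, and 0.19 without it. The third, 1438470_PM_at, read 3.23, 3.50 and 3.31 in KO LPS, 3.57, 3.07 and 3.64 in WT LPS, 3.18, 3.53 and 3.14 in KO unstimulated, and 3.33, 3.17 and 3.68 in WT unstimulated arrays. It showed LPS differences of 0.062 in KO, which turned to −0.016 without KO LPS array 2, and of 0.031 in WT. The difference between these was 0.031, and −0.047 without that array. KO minus WT after LPS was −0.080, and −0.16 without it. The fourth, 1441476_PM_at, was dim: 2.12, 2.33 and 2.31 in KO LPS, 1.94, 2.13 and 2.31 in WT LPS, 1.96, 1.83 and 2.07 in KO unstimulated, and 2.09, 2.28 and 2.09 in WT unstimulated arrays. Its KO unstimulated arrays lay below all WT unstimulated ones (−0.20 ± 0.12, adjusted p = 0.720) and below all KO LPS ones (LPS difference 0.30 ± 0.12, adjusted p = 0.451). Pairs of Socs2 probe sets other than the first pair correlated at −0.043 to 0.441. Socs2 KO minus WT did not pass on any probe set, at 0.29 ± 0.25 after LPS and 0.30 ± 0.25 without stimulation on the brightest.

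Socs3, the inhibitor that STAT3 induces downstream of IL-10 and IL-6, read 3.57, 2.64 and 4.05 in KO LPS, 3.82, 4.13 and 3.54 in WT LPS, 3.25, 2.84 and 2.80 in KO unstimulated, and 3.17, 3.05 and 2.89 in WT unstimulated arrays. The WT LPS arrays were all above the WT unstimulated ones, while the KO LPS group was wide, with array 2 the lowest of all 12. The LPS difference was 0.46 ± 0.28 in KO (adjusted p = 0.647) and 0.79 ± 0.28 in WT DCs (adjusted p = 0.828). Without KO LPS array 2 the KO difference was 0.85 (adjusted p = 0.120), close to that in WT. KO minus WT after LPS was −0.41 ± 0.28, and −0.019 without that array. The difference between the LPS effects was −0.33 ± 0.40 with it (interval −1.20 to 0.53) and 0.056 without it. Under the fixed block and without that array, Socs3 passed in WT (adjusted p = 0.0336) and not in KO (0.79, adjusted p = 0.120), and the difference between the genotypes did not pass (−0.0061, adjusted p = 0.998). Unstimulated KO and WT DCs differed by −0.075 ± 0.28.

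Socs1, an inhibitor of interferon signalling in many cells, was the dimmest of the 6 genes, above 25.5% of all probe sets on its mean. It read 2.04, 1.72 and 1.69 in KO LPS, 2.05, 1.98 and 2.34 in WT LPS, 1.94, 2.03 and 1.81 in KO unstimulated, and 1.81, 2.02 and 2.12 in WT unstimulated arrays. The groups overlapped in every comparison. KO minus WT after LPS was −0.31 ± 0.14, with an unadjusted p of 0.0448 and an adjusted p of 0.348, and −0.26 without KO LPS array 2. Its LPS differences were −0.11 ± 0.14 in KO (−0.063 without that array) and 0.14 ± 0.14 in WT DCs. At so low a signal, differences on an array tend to be understated.

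Cish gave the only comparison of KO with WT after LPS in which the arrays of the genotypes did not overlap among the 9 probe sets, an arrangement found in 17.1% of all probe sets. It read 4.95, 5.72 and 5.62 in KO LPS, 4.93, 4.74 and 4.62 in WT LPS, 4.91, 4.95 and 5.09 in KO unstimulated, and 4.87, 4.99 and 4.49 in WT unstimulated arrays. KO LPS arrays 2 and 3 stood above all the others, and array 1 only narrowly exceeded the highest WT LPS array. The means were 5.43 ± 0.42 in KO LPS and 4.76 ± 0.16 in WT LPS DCs (SD, n = 3 each). The difference of 0.67 ± 0.19 (1.59-fold, interval 0.25 to 1.08) had an unadjusted p of 0.00416 and an adjusted p of 0.170. It was 0.52 without KO LPS array 2 (adjusted p = 0.368) and 0.90 without KO LPS array 1, where it passed (adjusted p = 0.0359). Without stimulation Cish was 0.20 ± 0.19 above WT in KO DCs. LPS differences were 0.45 ± 0.19 in KO (adjusted p = 0.484, 0.30 without array 2) and −0.019 ± 0.19 in WT DCs, and the difference between them was 0.47 ± 0.27 (interval −0.12 to 1.05), or 0.32 without array 2.

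Arrays of the same number and genotype correlated at 0.22 to 0.387 after removal of group means, but the labels do not say that they are matched. The LPS differences within a number are therefore a description of which members moved in every one. For Il10 they were 2.39, 2.40 and 2.17 in KO and 2.27, 1.30 and 1.24 in WT DCs. All 6 were above 1, and only the first WT one reached the KO range. For Socs3 they were 0.32, −0.20 and 1.25 in KO and 0.65, 1.08 and 0.65 in WT, positive in all but KO number 2. For Cish they were 0.041, 0.77 and 0.53 in KO and 0.066, −0.25 and 0.12 in WT. For Il10ra they were 0.24, −1.20 and 0.097 in KO and −0.070, 0.035 and 0.062 in WT, so that the value of number 2 in KO stood far from the rest. For Socs1 they were 0.10, −0.31 and −0.12 in KO and 0.25, −0.038 and 0.21 in WT. Il10 and the Socs2 probe sets 1418507_PM_s_at and 1449109_PM_at were the members higher with LPS in all 6. The lowest increases were 1.24 for Il10, 0.47 for 1418507_PM_s_at and 0.045 for 1449109_PM_at. The share of all probe sets with this pattern was not computed.

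**Figure D3:**
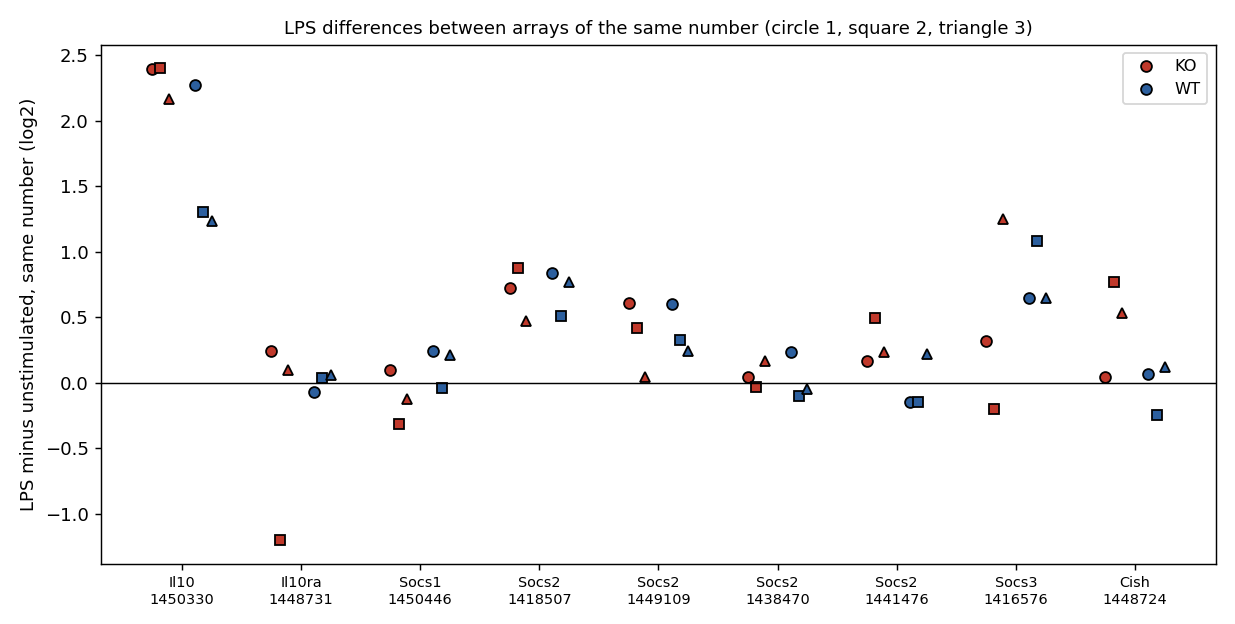
LPS minus unstimulated log2 signal for arrays of the same number (vertical axis) in KO (red, left) and WT (blue, right) DCs, one point per array number. Il10 lies at 2.17 to 2.40 in KO and 1.24 to 2.27 in WT, and the KO point of number 2 is the lowest for Il10ra (−1.20).

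The genes with profiles most like each member over the 12 arrays were taken from 9621 genes (9622 for Socs1) by Pearson r, as a description. For Il10 they were Cd40 (0.962), a costimulatory receptor of activated DCs, Tnfaip3 (0.960), an inhibitor of NF-kB signalling, and Pvr (0.948). These values were the same within 0.001 without KO LPS array 2. Those for Il10ra were Dctn3 (0.969), Ccnl2 (0.966) and Spata2 (0.957), and they dropped to 0.781, 0.876 and 0.712 without that array. For Socs2, on its brightest probe set, they were Gca (0.962), Cd200 (0.942) and Col27a1 (0.940). For Socs3 they were Cdkn1a (0.874), a cell cycle inhibitor, Ppp1r15a (0.864), a gene of the stress response, and Surf6 (0.860). For Cish they were Cobll1 (0.951), Tmem68 (0.924) and Apol7b (0.919), and for Socs1 Tatdn3 (0.875), C86187 (0.849) and P2ry1 (0.843).

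The other genes of the pathway were taken from 9 lists of 93 names, of which 76 were measured. All calls for LPS were of cytokines that induce SOCS genes. LPS in KO DCs called 3 of the 76, all higher (Il6, Ifnb1 and Lif), against 0.301% of all probe sets. In WT DCs it called 2 (Il6 and Ifnb1), against 0.128%. KO against WT called 1 gene in each stimulation, Stat4, which was lower in KO. Of all probe sets it called 0.163% without stimulation and 0.322% after LPS. The difference of the LPS effects called 0. The medians over the 76 genes were 0.019 for LPS in KO (0.0030 without KO LPS array 2) and 0.027 in WT, beside −0.022 and 0.0024 over all probe sets.

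Il6, a STAT3-activating inflammatory cytokine, read 5.31, 6.18 and 4.56 in KO LPS, 4.78, 4.23 and 4.55 in WT LPS, 2.56, 2.17 and 2.18 in KO unstimulated, and 2.16, 2.00 and 2.41 in WT unstimulated arrays. LPS and unstimulated arrays were far apart, and the highest value came from KO LPS array 2. Il6 rose by 3.04 ± 0.31 in KO (adjusted p = 0.00102; 2.63 without that array) and by 2.33 ± 0.31 in WT DCs (adjusted p = 0.00913). Ifnb1, the type I interferon that acts through JAK1 and TYK2, rose by 1.27 ± 0.23 in KO (adjusted p = 0.0463) and by 1.84 ± 0.23 in WT (adjusted p = 0.00694). Its KO difference of 1.17 without KO LPS array 2 missed the threshold (adjusted p = 0.0764). Lif, another activator of STAT3, rose by 0.76 ± 0.13 in KO (adjusted p = 0.0310), and its WT difference of 0.73 ± 0.13 missed the threshold (adjusted p = 0.0669) and passed under the fixed block (adjusted p = 0.0434). Stat4, which transmits interleukin 12 signals, read 4.70, 3.95 and 4.41 in KO LPS and 5.75, 5.35 and 5.73 in WT LPS arrays, and 4.35, 3.96 and 4.01 in KO unstimulated and 5.80, 5.28 and 5.26 in WT unstimulated arrays. All KO arrays were below all WT arrays. Stat4 was lower in KO, by a log2 difference of −1.26 ± 0.21 after LPS (adjusted p = 0.0285; −1.05 without KO LPS array 2) and of −1.34 ± 0.21 without stimulation (adjusted p = 0.0291).

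The remaining lists held no called gene in any of the 5 comparisons. These were the other SOCS genes (4 of 4 measured), the SOCS box ligase (4 measured), the IL-10 receptor with its kinases and STATs (4 of 5), the IL-10 response genes (13 of 14), other IL-10 family cytokines (2 of 4), regulators of Il10 transcription (12 of 17) and other inhibitors of JAK and STAT signalling (12 of 13). The regulators of Il10 transcription had median LPS differences of 0.40 in KO (0.24 without KO LPS array 2) and 0.17 in WT. Among them Map3k8, a kinase that links Toll-like receptors to ERK, was 0.89 ± 0.31 above the unstimulated level in KO LPS DCs (adjusted p = 0.369, 0.42 without that array). In WT DCs the Map3k8 means were 5.51 with LPS and 5.24 unstimulated. Irf4, a DC transcription factor, was 0.78 ± 0.36 above its unstimulated level in WT LPS DCs and 0.71 ± 0.36 above it in KO LPS DCs (adjusted p = 0.567). Jak2, which serves the receptors that act through STAT5, was 0.69 ± 0.18 above the unstimulated level in KO LPS (adjusted p = 0.189, 0.50 without that array) and 0.43 ± 0.18 in WT LPS DCs. Usp18, an inhibitor of interferon receptor signalling, differed by 0.81 ± 0.23 with LPS in WT DCs (adjusted p = 0.584) and passed there under the fixed block (adjusted p = 0.0410). In KO DCs the Usp18 means were 3.14 with LPS and 2.79 unstimulated. Csf3r, the receptor for the neutrophil growth factor G-CSF, was 1.54 ± 0.60 above WT in KO DCs after LPS and 1.99 ± 0.60 above it unstimulated (adjusted p = 0.307); it is itself 1 of the 10 neutrophil markers summed above. Without KO LPS array 2, 4 of the 76 list genes passed for LPS in KO DCs, against 0.464% of all probe sets. Il6, Lif and Irf4 were higher (Irf4 by 1.28, adjusted p = 0.00385) and Csf2rb, a receptor chain for GM-CSF, was lower (−0.81, adjusted p = 0.00589). In WT DCs 4 then passed, against 0.36% of all probe sets, with Il6, Ifnb1 and Lif higher and Csf2rb lower (−0.59, adjusted p = 0.0314). Ifngr2 (0.63, adjusted p = 0.0134) and Ifnar2 (0.54, adjusted p = 0.0215), both interferon receptor chains, were then higher in KO than in WT unstimulated DCs. Of all probe sets 0.851% passed in that comparison.

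**Figure D4:**
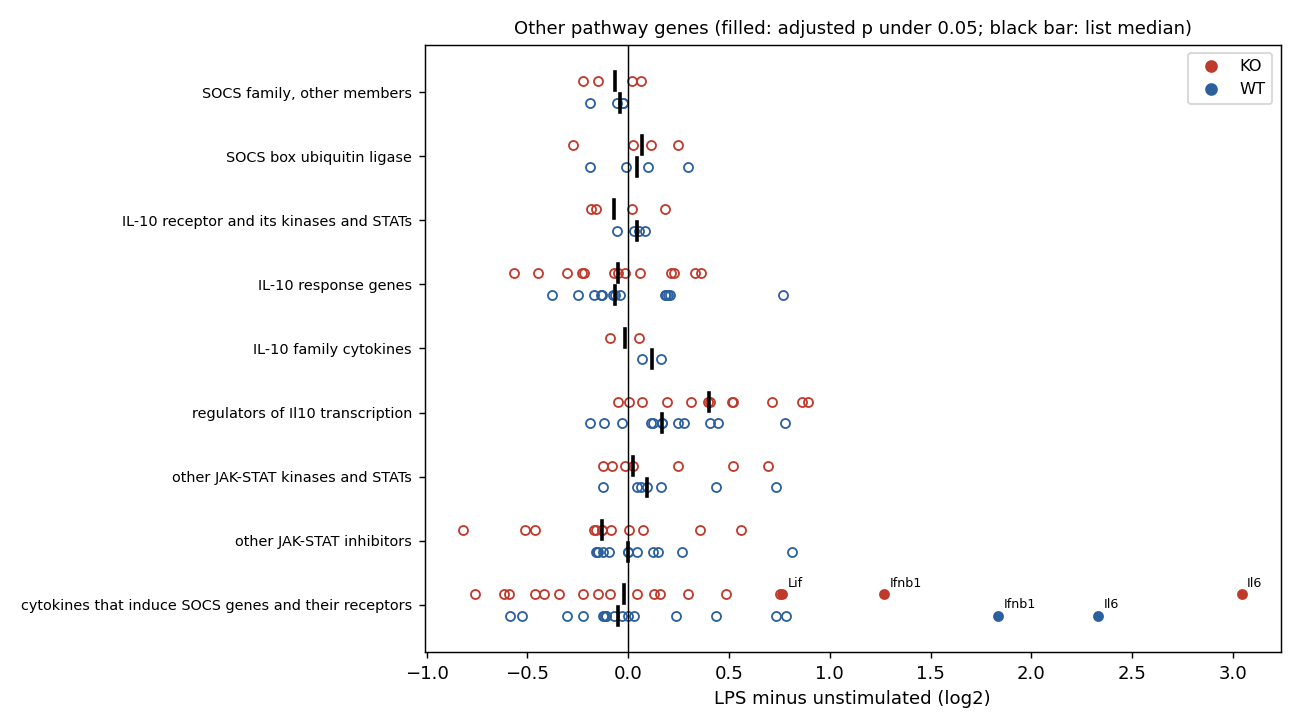
Log2 difference between LPS and unstimulated DCs (horizontal axis) for the measured genes of the 9 pathway lists, with KO above WT in each list; filled points passed the adjusted threshold and the black bar is the list median. The filled points are Il6, Ifnb1 and Lif in KO and Il6 and Ifnb1 in WT.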

How the data were processed

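Total RNA of splenic DCs was amplified with the WT-Ovation Pico System, biotinylated and run on Affymetrix arrays, per the labels' protocols. The deposited values are log2 signals per probe set that the authors made with RMA, per the submitters' processing notes; the sources used here give no RMA version. RMA shares a distribution across arrays, so a difference is relative to the other probe sets. The table held 45141 probe sets. The 104 controls, 551 with several symbols and 15588 without a symbol were left out, and 28898 were tested (28689 matched a RefSeq gene), with no filter on dim ones. The number of arrays limits the precision.

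One model of 4 group means was fitted with limma 3.58.1 (lmFit, eBayes; 8 residual and 4.38 prior degrees of freedom) in R 4.3.3, after the method was tested on simulated data. Errors after ± are moderated SEs unless marked SD. Members and lists were chosen with earlier results of these data known. Named were all member probe sets, the 3 genes most like each member, and, per list and comparison, up to 3 called and 2 uncalled genes with the largest difference, of which a selection is printed. Lists used the brightest probe set of a gene.

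The labels give every sample a mouse name of its own, and do not say whether same-numbered arrays share a litter or a day. After removing group means, same-numbered arrays of a genotype correlated at 0.22 to 0.387, and different numbers at −0.292 to −0.0471, which follows in part from that removal. Across genotypes the same number gave −0.0039 to 0.209. Numbers were therefore treated as pairs within a genotype, as a fixed block or a random block (statmod 1.5.0), in named alternatives. Further alternatives were array weights, an intensity trend, centring on medians, repeated quantile normalization, all non-control probe sets, 1 probe set per gene, a filter on dim probe sets, only the groups compared, a block of numbers over all arrays, and leaving out each array. The fixed block without KO LPS array 2, and the lists under the fixed block or without that array, were added after the data were seen.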

Additional observations from a re-analysis of the deposited data

How the results depend on the processing

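Il10 with LPS in KO DCs passed in all 12 fits that left out an array (2.04 to 2.56, adjusted p 0.00139 to 0.0256) and missed only when just the KO groups were fitted (adjusted p = 0.160). In WT DCs it passed with array weights (1.66, adjusted p = 0.0234), with only the WT groups (adjusted p = 0.00942), under the fixed (0.00507) and random (0.0273) replicate block, and in 1 of the 12 fits that left out an array, the one without KO LPS array 2. For LPS in KO, 1 of the 9 probe sets passed, 0 with only the groups compared, 2 under the fixed block and 1 in each fit that left out an array. For LPS in WT, 0 passed, 1 with array weights, only the groups compared or the random block, 2 under the fixed block, 3 under it without KO LPS array 2 (Il10, Socs2 and Socs3), and 0 to 1 with an array left out. For KO against WT after LPS it was 0 to 1 with an array left out. Of 1010 alternative values, 998 kept their side of the threshold, and no called value changed sign. Uncalled values changed sign 54 times, over 18 of the 45 results, which measured up to 0.33 in size in the main fit. Counts over all probe sets moved most. LPS in KO gave 87, 8 with only the groups compared, 155 with array weights, 198 and 154 under the fixed and random block, 135 with numbers blocked over all arrays, 250 under the fixed block without KO LPS array 2, and 42 to 134 with an array left out. LPS in WT gave 37, and in the same order 78, 79, 106, 74, 80, 337 and 11 to 104, with 20 at 1 probe set per gene. KO against WT gave 93 after LPS (0 with only the groups compared, 373 with numbers blocked, 2 to 511 with an array left out). Unstimulated it gave 47 (115, 222 and 6 to 246 in the same order, and 202 with array weights). The difference of the LPS effects gave 0 throughout. The causes were not tested. The dim filter kept 15440 probe sets and dropped Socs1 and 1441476_PM_at. With 3 arrays a group, intervals of the widths given above limit what could be seen, and dim probe sets understate differences.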
